A study of Mus musculus with 5 samples.

Results

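Transcripts of 9 genes of vitamin D and phosphate handling were followed in single kidney cells of mice with pristane-induced lupus: *Cyp24a1*, *Cyp27b1*, *Vdr*, *Slc34a1*, *Slc34a3*, *Slc20a2*, *Kl*, *Lrp2* and *Cubn*. They were taken by symbol from the 27998 genes of the deposited matrices, and all 9 were found, each under 1 gene identifier. The choice was made with earlier results of these libraries known, and the set was chosen by the levels of *Cyp24a1* in proximal tubule cells, which differed between the treatments, so those values are given as a description without a test. The 5 kidney samples came from C57BL/6j mice in which pristane, a hydrocarbon oil, had induced a lupus-like disease. Both groups carried that disease: 2 samples came from mice given saline, and 3 from mice that received gut microbiota of MRL/MpJ donors by faecal transplant (FMT). No mouse without pristane, no transplant from another donor strain, and no age, sex, dose or time is given in the sources used here. Each sample is called a mouse below; the labels do not say that every sample was a separate animal, so p-values measure the spread between these samples. The titles hold letter codes, C and D for saline and B for FMT, so whatever the letters mark and the treatment cannot be told apart.

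The kidney holds both ends of vitamin D metabolism. Megalin (*Lrp2*) and cubilin (*Cubn*) are the receptors that take filtered 25-hydroxyvitamin D, on its binding protein, into proximal tubule cells. There the 1-alpha-hydroxylase *Cyp27b1* makes the active hormone calcitriol, and the 24-hydroxylase *Cyp24a1* breaks it down. Calcitriol acts through the nuclear receptor *Vdr*, and *Cyp24a1* is a classical target of that receptor. Phosphate is reclaimed in the same cells by the sodium-phosphate cotransporters *Slc34a1* (NaPi-IIa) and *Slc34a3* (NaPi-IIc) and, in smaller part, by the type III family to which *Slc20a2* (Pit-2) belongs. The bone hormone FGF23, with its co-receptor klotho (*Kl*), lowers both transporters and *Cyp27b1* and raises *Cyp24a1*, whereas parathyroid hormone lowers the transporters and raises *Cyp27b1*.

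The matrices held 26237 barcodes with 15333445 to 45309178 UMIs (unique molecular identifiers, each standing for 1 captured transcript) per mouse, and 21708 cells were used after filtering. Cells were placed by UMIs of marker transporters: *Slc5a2* and *Slc5a12* for the first part of the proximal tubule (S1), *Slc22a6* and *Slc22a8* for the second (S2), *Slc12a3* for the distal convoluted tubule, *Slc12a1* for the thick limb, and *Ptprc* (CD45) for leukocytes. Of the cells used, 65.1% to 77.6% per mouse fell into one of these gates. The proximal tubule gate held 1697 and 1051 cells in saline mice 1 and 2 and 3174, 2224 and 1211 in FMT mice 1, 2 and 3. The distal gate held 107 to 264 cells per mouse, the *Ptprc* gate 474 to 1672 and the thick limb gate 5 to 30. The labels name renal tubular epithelial cells, and 8 proximal tubule markers outside the gate genes summed to 33319 to 50096 CPM (counts per 1e6 UMIs) in the proximal tubule gate against 1039 to 1787 in the *Ptprc* gate. Pairs of libraries shared 3 to 12 cell barcodes. The CPM of a gene is its UMI count over the UMIs of all cells of a gate in 1 mouse, scaled in this way. It has no correction for transcript length, so levels are compared for 1 gene across gates and mice and not between genes.

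The level in the *Ptprc* gate is given beside each gene as the background, because droplets can pick up free RNA from lysed cells. Of the 9 genes, *Vdr* and *Cyp27b1* can also be made by leukocytes, and *Slc20a2* is found in many tissues. For these genes the *Ptprc* gate level may hold RNA of the leukocytes themselves. *Cyp24a1*, *Cyp27b1* and *Slc34a3* were concentrated in S1, *Slc34a1*, *Lrp2* and *Cubn* were high in both proximal segments, and *Vdr* and *Kl* reached into the distal gate. Gates were cut from the same cells' transcripts, so gate against gate is a description over the 5 mice and carries no test.

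**Figure D1:**
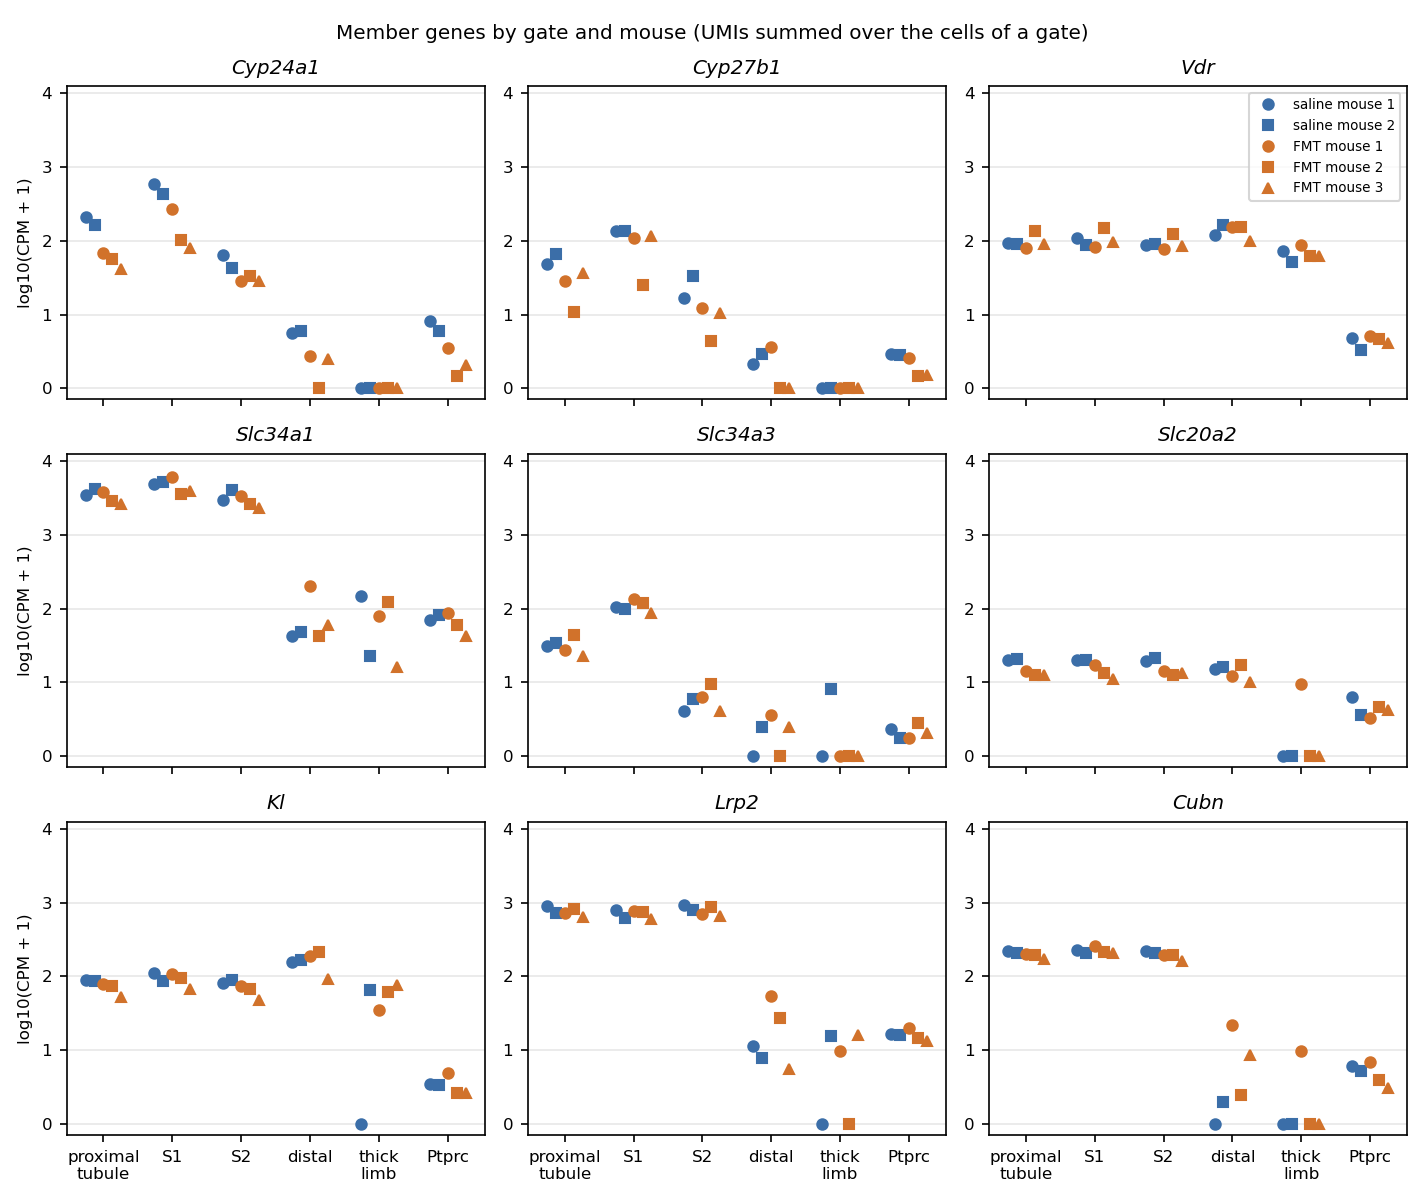
Level of each of the 9 genes in 6 gates, as log10(CPM + 1), with 1 point per mouse (blue, saline; orange, FMT). *Cyp24a1*, *Cyp27b1* and *Slc34a3* lie higher in S1 than in S2 in all 5 mice, *Kl* and *Vdr* lie highest in the distal gate, and all 9 genes are lower in the *Ptprc* gate than in the proximal tubule gate.

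*Cyp24a1* (ENSMUSG00000038567, chromosome 2, 170482708 to 170497145, minus strand, mm10) inactivates calcitriol and its precursor. In the S1 gate its level was 584 CPM in saline mouse 1, 430.1 in saline mouse 2, and 274, 103 and 78.1 in FMT mice 1, 2 and 3. Both saline mice lay above all 3 FMT mice there. In the S2 gate the same mice had 62.9, 41.8, 27.4, 32.4 and 27.9 CPM. S1 exceeded S2 in 5 of 5 mice, by 2.80 to 10.3 times with a median of 9.29. Outside the proximal tubule the transcript was near background: the distal gate had 0 to 4.91 CPM, the *Ptprc* gate 0.458 to 7.21, and the thick limb cells of all mice had no UMI. For the thick limb, a count of 0 allows 21.7 to 219 CPM per mouse, so expression at those levels was not detectable. *Cyp24a1* shares bases with *Pfdn4* on the opposite strand, and the sources used here do not say whether counting used strand.

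*Cyp27b1* (ENSMUSG00000006724, chromosome 10, 127048250 to 127053006, plus strand), which makes calcitriol, had 136 CPM in both saline mice in the S1 gate and 110.1, 24.3 and 116 in FMT mice 1, 2 and 3. FMT mouse 2 stood below the other 4. The S2 gate had 15.6, 32.1, 11.4, 3.41 and 9.52 CPM in the same order, so S1 exceeded S2 in 5 of 5 mice by 4.24 to 12.2 times. FMT mouse 2 was the lowest in S2 as well. The distal gate had 0 to 2.60 CPM, the *Ptprc* gate 0.458 to 1.97, and the thick limb gate no UMI. The 250 bases before its start site are shown because this enzyme's transcript had the narrow S1 pattern; the sequence is from the RefSeq promoter table, GRCm38.p6, chr10:127047996-127048245, plus strand, and it lies in no annotated UTR.
Cyp27b1 promoter: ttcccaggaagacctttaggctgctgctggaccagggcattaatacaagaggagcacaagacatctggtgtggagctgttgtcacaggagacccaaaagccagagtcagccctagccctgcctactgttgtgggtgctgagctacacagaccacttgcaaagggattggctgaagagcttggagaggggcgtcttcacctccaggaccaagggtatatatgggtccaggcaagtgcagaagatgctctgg
Motifs were searched there on both strands: the nuclear receptor half-sites AGGTCA and AGTTCA, also as a direct pair spaced by 3 bases, which is the arrangement that *Vdr* binds together with its partner RXR, GTTAAT, a half-site of the HNF1 factors, and CAAAGTCCA, a site of HNF4. None of these letters stood in this window, which says nothing about the factors. Over 32851 promoter windows of the same length, 14.0% held AGGTCA, 11.8% AGTTCA, 6.43% GTTAAT, 0.384% CAAAGTCCA and 0.0122% the pair. Windows of 7 of the 9 genes were in the table.

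*Vdr* (ENSMUSG00000022479, chromosome 15, 97854425 to 97910630, minus strand), the calcitriol receptor, was found in proximal and distal gates alike. The proximal tubule gate had 93.8 and 88.5 CPM in the saline mice and 78.5, 133 and 89.2 in the FMT mice, and the distal gate had 118, 165, 152, 154 and 98.6. The distal level was the higher one in 5 of 5 mice, with a proximal to distal ratio of 0.52 to 0.90. The S1 to S2 ratio was 0.99 to 1.25. The thick limb gate gave 50.7 to 86.0 CPM from 23 UMIs in all, and the *Ptprc* gate 2.33 to 4.08 CPM. *Vdr* was therefore 19.2 to 38.0 times its *Ptprc* gate level in the proximal tubule gate.

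*Slc34a1* (ENSMUSG00000021490, chromosome 13, 55398187 to 55415592, plus strand), the main apical phosphate transporter, had 3451 and 4251 CPM in the proximal tubule gate of the saline mice and 3802, 2872 and 2647 in that of the FMT mice. The groups overlapped. S1 exceeded S2 in 5 of 5 mice, by 1.29 to 1.80 times, a shallower gradient than the ratios of *Cyp24a1* or *Cyp27b1*. The *Ptprc* gate had 41.3 to 87.0 CPM, and the proximal level was 43.7 to 64.1 times that. The gene shares bases with *Pfn3* on the opposite strand. Its promoter window is shown because it held motif letters of the HNF1 factors, which are active in proximal tubule cells: GRCm38.p6, chr13:55399398-55399647, plus strand, inside the first intron of a longer transcript in GENCODE M21 and in no annotated UTR, with matches in capitals.
Slc34a1 promoter: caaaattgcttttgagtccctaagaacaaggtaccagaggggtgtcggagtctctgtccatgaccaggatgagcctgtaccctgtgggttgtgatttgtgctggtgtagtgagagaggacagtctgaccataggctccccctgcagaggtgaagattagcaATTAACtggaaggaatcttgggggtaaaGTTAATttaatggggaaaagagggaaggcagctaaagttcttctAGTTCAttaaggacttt
In order, the capitals mark ATTAAC, which is GTTAAT on the opposite strand, 89 bases before the start, then GTTAAT at 61 bases and AGTTCA at 17 bases on the gene's own strand. The distances count from the first base of each match. Such matches are a description of the letters and not of binding.

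*Slc34a3* (ENSMUSG00000006469, chromosome 2, 25228898 to 25234364, minus strand), the second apical transporter, had the steepest S1 gradient among the 9 genes. The S1 gate had 106, 98.4, 134, 118 and 85.1 CPM in saline mice 1 and 2 and FMT mice 1, 2 and 3, and the S2 gate had 3.11, 5.02, 5.38, 8.63 and 3.06. The ratio was 13.7 to 33.9, with a median of 24.9. The *Ptprc* gate level was 0.777 to 1.83 CPM, so the S2 gate lay above background in all 5 mice by a small margin. In its promoter window (GRCm38.p6, chr2:25234235-25234484, minus strand) AGGTCA stood at 33 bases before the start on the gene's strand and at 6 bases on the opposite strand. That start is the RefSeq one, which lies inside the gene as annotated in GENCODE M21. The window thus overlaps the annotated gene, and both matches lie in that overlap.

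*Slc20a2* (ENSMUSG00000037656, chromosome 8, 22476788 to 22569612, plus strand), a type III phosphate transporter found in many tissues, showed no segment pattern. The proximal tubule gate had 18.9 and 19.5 CPM in the saline mice and 13.5, 11.7 and 11.6 in the FMT mice. The distal gate had 9.11 to 16.2 CPM and the *Ptprc* gate 2.33 to 5.41. The proximal level was 3.19 to 7.51 times the *Ptprc* level, the lowest ratio range of the 9 genes. *Slc20a2* shares bases with *Smim19* on the opposite strand and with *Gm17491* on its own.

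*Kl* (ENSMUSG00000058488, chromosome 5, 150952607 to 150993817, plus strand), the FGF23 co-receptor, was highest in the distal gate, with 155, 165, 189.8, 212 and 91.1 CPM. The proximal tubule gate of the same mice had 87.4, 86.9, 78.9, 73.4 and 50.8. The distal level was the higher one in 5 of 5 mice, and the proximal to distal ratio was 0.35 to 0.56. In the *Ptprc* gate *Kl* was at 1.59 to 3.88 CPM, so the proximal level stood well above background. FMT mouse 3 was the lowest mouse in both tubule gates.

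The uptake receptors followed the proximal tubule. *Lrp2* (ENSMUSG00000027070, chromosome 2, 69424340 to 69586065, minus strand) had 888 and 723 CPM in the proximal tubule gate of the saline mice and 719, 811 and 630.1 in that of the FMT mice. *Cubn* (ENSMUSG00000026726, chromosome 2, 13276338 to 13491813, minus strand) had 219, 204, 203, 197 and 171. Neither receptor had the S1 gradient of the hydroxylases: the S1 to S2 ratio was 0.78 to 1.10 for *Lrp2* and 0.98 to 1.35 for *Cubn*. In the *Ptprc* gate *Lrp2* had 12.2 to 19.2 CPM and *Cubn* 2.12 to 6.02.

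Saline and FMT mice were compared gate by gate on UMIs summed per mouse, with edgeR's quasi-likelihood test over all genes and a Benjamini-Hochberg adjusted p under 0.05 as the threshold. The set was chosen by the difference of *Cyp24a1* in these cells, so its values are a description. Its mean in saline mice was 3.34 times that in FMT mice in S1 and 3.40 times in the whole proximal tubule gate. Of the other 8 members, 0 passed the test in any gate, in either direction. *Cyp27b1* and *Slc20a2* were lower in every FMT mouse than in either saline mouse in all 3 proximal gates, whereas *Vdr*, *Slc34a1*, *Slc34a3* and *Lrp2* overlapped between the groups there.

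Over all genes, in the proximal tubule gate edgeR called 0 of 11635 genes (0.0%), while 1345 had an unadjusted p under 0.05 and DESeq2 called 81 (0.696%). edgeR called 0.267% of 10122 genes in S1, 0.0813% of 11068 in S2 and 0.325% of 8313 in the distal gate, and in these 3 gates DESeq2 called 0.257%, 0.804% and 0.192%. In the *Ptprc* gate edgeR called 0 of 11173 (0.0%), with 480 at an unadjusted p under 0.05 and 13 by DESeq2 (0.116%). All 9 members passed the low count filter in the 3 proximal gates, 5 in the distal gate and 7 in the *Ptprc* gate. In the proximal tubule gate 5 of the 9 members were lower in every FMT mouse than in either saline mouse, beside 16.0% of all genes tested. In S1 these were 3 of 9 beside 7.8%, and in S2 5 of 9 beside 17.3%. The members were chosen with this contrast known, so nothing is read from those counts. In the distal gate 1 of 9 was lower in every FMT mouse (*Cyp24a1*, 0 to 10 UMIs per mouse) beside 10.7% of all genes, and 1 higher (*Cubn*) beside 7.66%. In the *Ptprc* gate 2 were lower (*Cyp24a1* and *Cyp27b1*) beside 10.7% and 0 higher beside 8.08%. The shares are over genes that passed the low count filter. *Cyp24a1* and *Cubn* failed it in the distal gate, as did *Cyp27b1* in the *Ptprc* gate. Counts and shares of these 2 gates thus cover unlike sets.

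**Figure D2:**
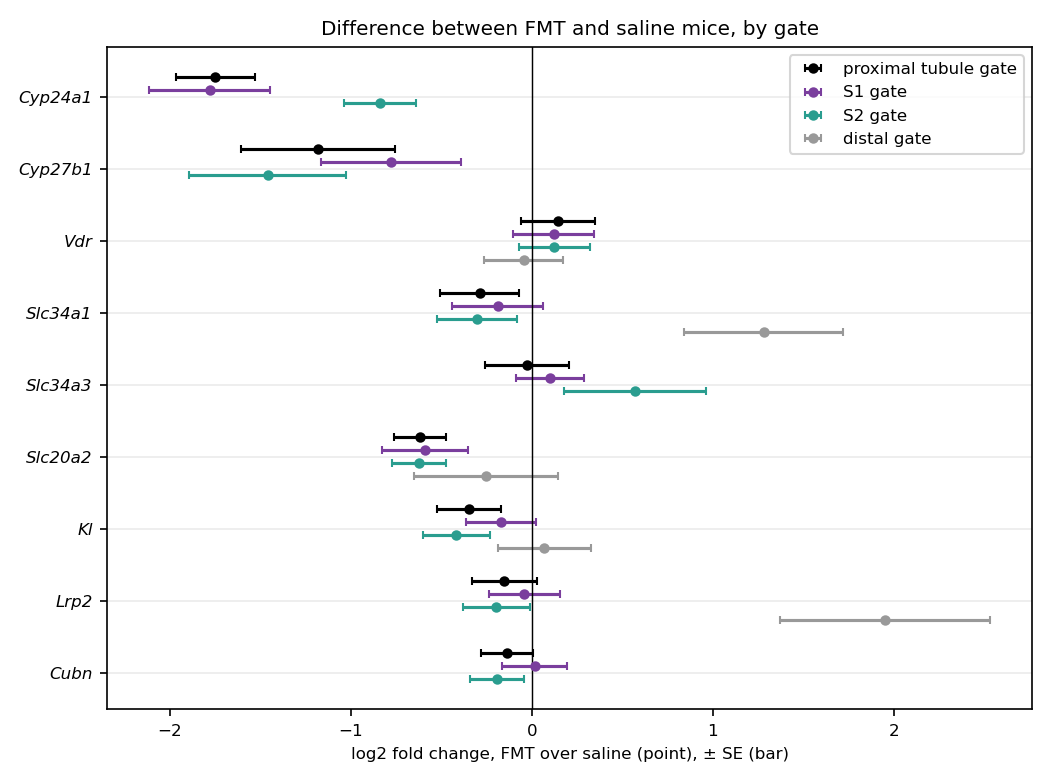
log2 fold change of FMT over saline mice (points, edgeR) with its standard error (bars) for each gene in the proximal tubule, S1, S2 and distal gates. Genes that failed the low count filter of the distal gate have no grey point. The standard error was derived from the F statistic of the test. *Cyp24a1* was chosen for this contrast, so its bars are not to be read as a test. *Cyp24a1* sits at -1.75 and -1.78 in the proximal tubule and S1 gates, *Cyp27b1* between -0.78 and -1.46, and *Vdr* and *Slc34a3* near 0 in the proximal tubule gate.

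*Cyp24a1* averaged 186 ± 33.2 CPM in the proximal tubule gate of the saline mice and 54.6 ± 13.9 in that of the FMT mice (SD, n = 2 and 3), a ratio of 3.40. Single values were 209 and 162 against 68.2, 55.0 and 40.5 CPM, and all FMT mice lay below both saline mice. The log2 fold change was -1.75 in this gate, -1.78 in S1 and -0.84 in S2. The gene was chosen for this contrast, so no p is given. In the S1 gate FMT mouse 1 stood between the saline mice and the other FMT mice, and without it the log2 fold change was -2.50. In the S2 gate it was -0.45 without saline mouse 1. Leaving out the cell with most *Cyp24a1* UMIs in each mouse changed no direction. S1 cells made up 35.7% and 32.3% of the proximal tubule gate in the saline mice and 26.2%, 38.8% and 30.6% in the FMT mice, so their share overlapped between the groups.

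Some markers of other cell types also separated the groups in the proximal tubule gate. Sums of 4 monocyte and macrophage markers were 23.4 and 12.7 CPM in the saline mice and 2.53 to 5.81 in the FMT mice, with 0 to 2 of the 4 at 0. Sums of 3 neutrophil markers were 280.3 and 50.7 CPM against 9.35 to 47.0, of 4 intercalated cell markers 40.7 to 46.2 against 16.4 to 36.7, of 4 distal convoluted tubule markers 49.2 to 57.3 against 37.9 to 44.5, of 4 thick limb markers 5.76 to 13.1 against 2.28 to 4.12, and of 4 principal cell markers 13.4 to 13.5 against 20.04 to 24.1. The sums of 10 acute stress genes overlapped, at 141 and 181 against 123 to 181 CPM, and podocyte markers summed to at most 0.09 CPM. *Cyp24a1* itself was at 0.458 to 7.21 CPM in the *Ptprc* gate, which is 27.01 to 120.2 times lower than in the proximal tubule gate of the same mouse. The part of the other markers in the member results was not tested.

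*Cyp27b1* averaged 56.0 ± 11.99 CPM in the proximal tubule gate of the saline mice and 24.3 ± 13.04 in that of the FMT mice (SD, n = 2 and 3). Single values were 47.5 and 64.4 against 27.6, 9.95 and 35.4 CPM, which did not overlap. The log2 fold change was -1.18 (SE 0.424; edgeR adjusted p = 0.363) in this gate. It was -0.78 (SE 0.388; edgeR adjusted p = 0.861) in S1 and -1.46 (SE 0.433; edgeR adjusted p = 0.266) in S2. Without FMT mouse 2, the lowest, it was -0.78 in the proximal tubule gate, -0.30 in S1 and -1.09 in S2, and leaving out each mouse gave -0.94 to -1.91 in S2. With no filter on low counts the edgeR adjusted p was 0.00443 in the proximal tubule gate, 0.00585 in S1 and 8.6e-05 in S2, so the call changed with that filter. In the same 3 gates the adjusted p with DESeq2 was 0.735, 1 and 0.476.

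*Slc20a2* varied little within groups, with 19.2 ± 0.428 CPM in the proximal tubule gate of the saline mice and 12.3 ± 1.07 in that of the FMT mice (SD, n = 2 and 3). The groups did not overlap in this gate, in S1 or in S2. The log2 fold change was -0.62 (SE 0.143; edgeR adjusted p = 0.248), and it was -0.59 in S1 and -0.62 in S2. Every one of the 14 alternative settings gave a negative value in each of these gates, and none passed the threshold. *Kl* had 87.2 ± 0.369 against 67.7 ± 14.9 CPM in the proximal tubule gate, a log2 fold change of -0.34 (SE 0.177; edgeR adjusted p = 0.495), and *Cubn* 212 ± 10.9 against 190.2 ± 17.2, a log2 fold change of -0.14 (SE 0.143; edgeR adjusted p = 0.73). For these genes too both saline mice lay above the 3 FMT mice, for *Cubn* narrowly, at 219 and 204 against 203, 197 and 171 CPM.

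The remaining members overlapped between the groups in the proximal tubule gate. The log2 fold change was -0.29 (SE 0.218) for *Slc34a1*, -0.15 (SE 0.178) for *Lrp2*, -0.03 (SE 0.232) for *Slc34a3* and 0.15 (SE 0.205) for *Vdr*, with edgeR adjusted p-values of 0.63, 0.76, 0.974 and 0.8. The sign of the last 3 changed when 1 mouse was left out. In S2 *Slc34a3* had a log2 fold change of 0.57 (SE 0.394; edgeR adjusted p = 0.546) at 3.06 to 8.63 CPM per mouse, where FMT mouse 2 was the highest and FMT mouse 3 the lowest.

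The difference between S1 and S2 in their response was tested within mice for the members other than *Cyp24a1*. *Cyp27b1* had the largest: its log2 fold change was higher in S1 than in S2 by 0.64 (SE 0.206; edgeR adjusted p = 0.296), and none of the other 7 passed. Of 11230 genes, 0.0445% were called. The *Cyp27b1* difference moved with single saline mice: it was 1.06 and passed without saline mouse 1 (edgeR adjusted p = 0.000556), and 0.15 without saline mouse 2 (edgeR adjusted p = 1.0).

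The share of cells with a transcript was compared after thinning each cell to 2000 UMIs, so that deeper libraries did not detect more. *Cyp24a1* was seen in 53.1% of S1 cells in saline mouse 1 (95% exact binomial interval 48.5 to 57.6%) and 44.5% in saline mouse 2 (38.8 to 50.3%). It was seen in 28.3% (25.1 to 31.7%), 15.8% (13.2 to 18.7%) and 11.3% (7.91 to 15.5%) of S1 cells in FMT mice 1, 2 and 3. The intervals cover counting error among the cells of 1 mouse and not the spread between mice, and these shares, like the levels, are of the gene chosen for this contrast. In the *Ptprc* gate the shares were 0.114% to 1.14%. Without thinning, S1 shares were 64.6% and 61.9% against 45.1%, 25.3% and 21.6%, at median depths of 3547 to 4952 UMIs in S1 cells and 2966 to 4061 in *Ptprc* cells.

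**Figure D3:**
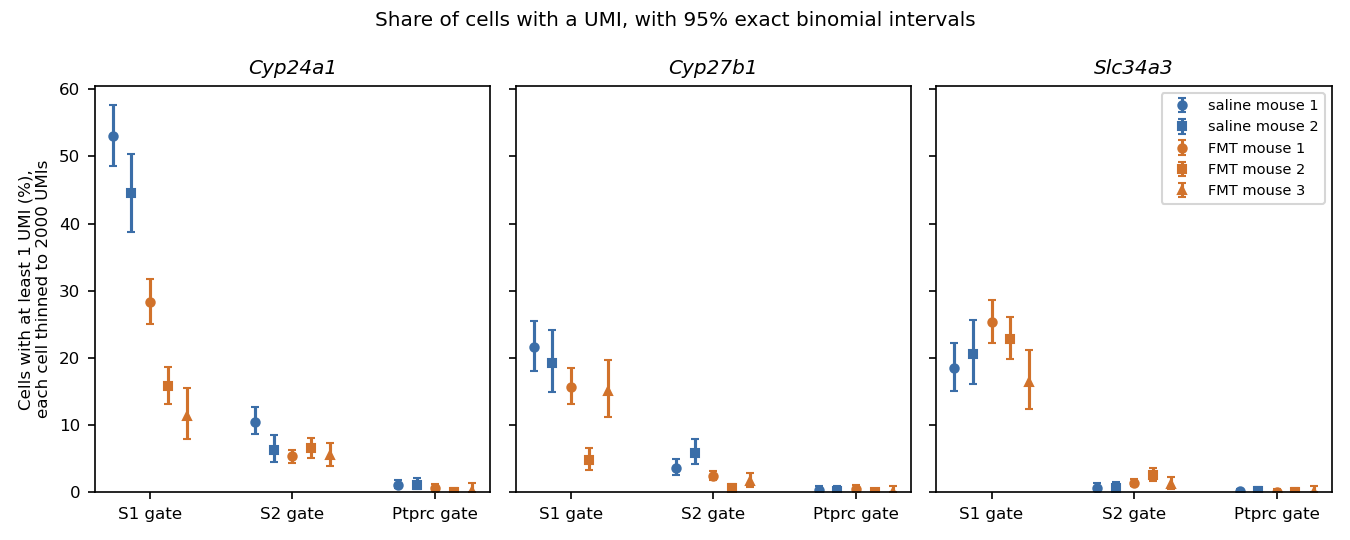
Percent of cells with at least 1 UMI of *Cyp24a1*, *Cyp27b1* or *Slc34a3* in the S1, S2 and *Ptprc* gates after thinning to 2000 UMIs, 1 point per mouse with 95% exact binomial intervals. The *Cyp24a1* share in S1 runs from 53.1% in saline mouse 1 to 11.3% in FMT mouse 3, and the *Slc34a3* share in S1 stays between 16.4% and 25.3%.

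S1 cells with the transcript carried 8.12 and 5.94 *Cyp24a1* UMIs per 10000 in the saline mice and 5.51, 3.12 and 2.76 in the FMT mice, a value over cells that hold a UMI and so one that moves with the mean level and the depth. The tenth of S1 cells with most *Cyp24a1* held 44.1% and 52.8% of its UMIs in the saline mice and 55.6%, 68.6% and 68.4% in the FMT mice. This share rises by itself as fewer cells hold a UMI. The *Cyp27b1* share of S1 cells was 21.6% and 19.3% in the saline mice and 15.7%, 4.8% and 15.1% in the FMT mice. For *Slc34a3* it was 18.5%, 20.6%, 25.3%, 22.9% and 16.4%, so this S1 transporter overlapped between the groups. *Ptprc* gate shares were at most 0.460% for *Cyp27b1* and 0.152% for *Slc34a3*, and thinning left out 38 to 154 S1 cells per mouse. In the S2 gate the *Cyp24a1* share was 10.5% and 6.33% against 5.35%, 6.54% and 5.51%, and the groups overlapped.

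Within mice, S2 cells with and without a *Cyp24a1* UMI were compared for other members. Those with one had more *Slc34a3* than those without in 5 of 5 mice, at a ratio of 1.18 to 3.00 (median 2.04). The S1 marker *Slc5a2* was also higher in these cells in 5 of 5 mice (1.03 to 2.27, median 1.28), and the S2 marker *Slc22a6* lower in 5 of 5 (0.729 to 0.992). The other marker of each pair was not uniform. *Slc5a12* ran from 0.686 to 1.38, above 1 in 3 mice, and *Slc22a8* from 0.807 to 1.13, above 1 in 2. The part of these markers in the *Slc34a3* ratio was not tested. Cells with a *Cyp24a1* UMI had less *Cyp27b1* in 5 of 5 mice, at a ratio of 0.278 to 0.878 (median 0.685). In the S1 gate the *Cyp27b1* ratio was 0.55 to 1.52, above 1 in 3 mice and below 1 in both FMT mice 2 and 3. Cells with *Cyp24a1* were deeper (medians of 7319 to 10532 UMIs in S2 against 5725 to 8063 without), and ratios are of CPM. The S2 ratios of *Slc34a3* and *Cyp27b1* rest on 3 to 33 UMIs per mouse in the cells with *Cyp24a1*, so they are values and not a test.

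The 5 genes whose pattern over the 5 mice lay nearest to that of *Cyp24a1* were sought among 3778 genes with a mean of at least 30 CPM in the proximal tubule gate, by the distance between log2 CPM values after each gene was centred on its own mean. *Nuak2*, a kinase of the AMPK family, was the nearest at a distance of 0.22, with 185 and 167 CPM in the saline mice and 73.2, 52.5 and 41.3 in the FMT mice. *Cdr2* (0.90), *Tob2* (0.91), an antiproliferative gene, *Amotl2* (0.93), a partner of the Hippo pathway, and *Ccnd1* (0.94), which encodes cyclin D1, followed. *Ccnd1* had 245 and 218 against 66.0, 49.7 and 82.8 CPM. All 5 genes were lower in the 3 FMT mice than in both saline mice, beside 16.0% of all genes tested in this gate. They were picked for their likeness to *Cyp24a1*, itself chosen for this contrast, so nothing is read from that order. Likeness over 5 samples of 2 groups is a description.

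**Figure D4:**
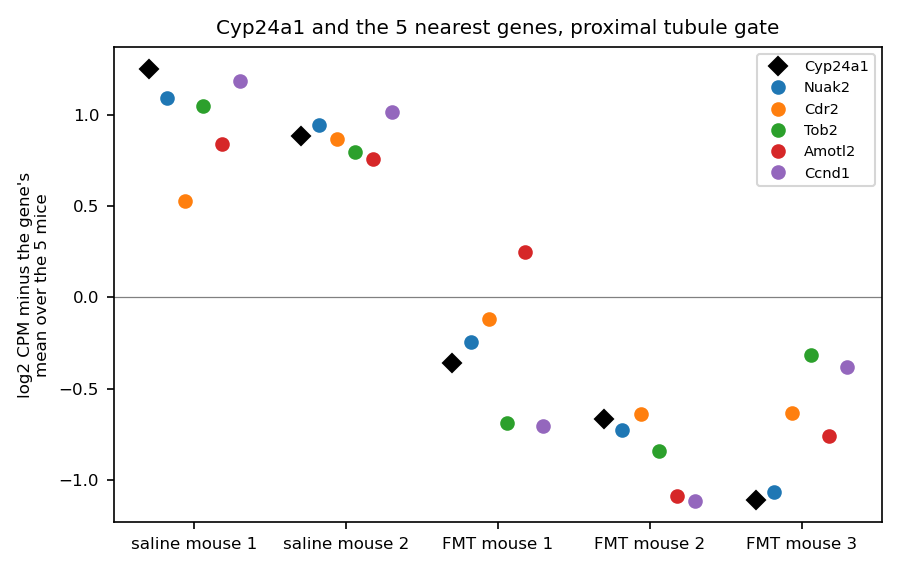
log2 CPM of *Cyp24a1* (diamonds) and its 5 nearest genes (circles) in the proximal tubule gate of each mouse, each minus the gene's mean over the 5 mice. *Nuak2* tracks *Cyp24a1* within every mouse, while *Amotl2* departs in FMT mouse 1 and *Tob2* and *Ccnd1* in FMT mouse 3.

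The rest of the pathway was read from 5 lists with 57 genes, which were also set with earlier results known. None of their members was called in any gate: 44 were tested in the proximal tubule gate, of which 22 had a positive and 22 a negative log2 fold change, 40 in S1, 43 in S2, 37 in the distal gate and 36 in the *Ptprc* gate. In the proximal tubule gate the median log2 fold change was -0.046 over 13 genes of vitamin D metabolism and receptor partners, -0.093 over 9 of phosphate transport, 0.027 over 6 of parathyroid hormone, FGF23 and calcium sensing, -0.199 over 5 of calcium transport and 0.073 over 11 of megalin and cubilin uptake, beside 0.004 over all genes tested. The smallest adjusted p in the proximal tubule gate belonged to *Slc20a1* (Pit-1), the closest relative of *Slc20a2*. It had 20.7 and 18.2 CPM in the saline mice and 9.64, 11.3 and 9.86 in the FMT mice, a log2 fold change of -0.91 (SE 0.147; edgeR adjusted p = 0.1). Both type III transporters were thus lower in every FMT mouse, as were 16.0% of all genes tested in this gate, and neither passed the test.

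*S100g* (calbindin-D9k) is a calcium-binding protein whose gene is a known target of calcitriol. In the proximal tubule gate *S100g* was higher in every FMT mouse, as were 13.3% of all genes tested there. It had 501 and 452 CPM in the proximal tubule gate of the saline mice and 891, 848 and 898 in that of the FMT mice, a log2 fold change of 0.90 (SE 0.166; edgeR adjusted p = 0.152). In the distal gate it varied more, from 442 CPM in FMT mouse 3 to 8182 in FMT mouse 1, and the groups overlapped. *Calb1* (calbindin-D28k) in the distal gate had 748 and 738 against 999, 1666 and 499 CPM, a log2 fold change of 0.53 (edgeR adjusted p = 1.0). Other genes of these lists in the proximal tubule gate included *Cldn2*, a paracellular cation channel (log2 fold change -0.33, edgeR adjusted p = 0.467), and *Ncoa3*, a nuclear receptor coactivator (-0.29, edgeR adjusted p = 0.419).

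Receptors for the hormones above *Cyp27b1* and *Slc34a1* gave no call either. *Pth1r*, the parathyroid hormone receptor, had 295 and 436 CPM in the proximal tubule gate of the saline mice and 418, 411 and 339.8 in that of the FMT mice. Its log2 fold change was 0.12 (edgeR adjusted p = 0.826). *Fgfr4* had -0.21 (edgeR adjusted p = 0.576), *Fgfr3* 0.08 (edgeR adjusted p = 0.82) and *Fgfr2*, at 0.379 to 1.49 CPM, -0.79 (edgeR adjusted p = 0.545). The scaffold *Slc9a3r2*, which binds *Slc34a1*, had 0.47 (edgeR adjusted p = 0.458). Among partners of megalin and cubilin, *Lrpap1*, the chaperone of megalin, had 0.23 (edgeR adjusted p = 0.637), *Rab11a* 0.17 and *Cltc* -0.16.

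In the distal gate *Vdr*, *Kl* and *Slc20a2* had log2 fold changes of -0.05, 0.07 and -0.25 (SE 0.219, 0.259 and 0.397), and the groups overlapped. *Lrp2* and *Slc34a1*, which are proximal tubule genes, were counted there too. *Lrp2* had 10.5 and 6.88 CPM in the saline mice and 53.7, 26.4 and 4.55 in the FMT mice, a log2 fold change of 1.95 (SE 0.581; edgeR adjusted p = 0.325). *Slc34a1* had 41.99 and 47.1 against 205, 41.1 and 59.2 CPM, a log2 fold change of 1.28 (SE 0.441; edgeR adjusted p = 0.563). Without FMT mouse 3 *Lrp2* passed (2.38, edgeR adjusted p = 0.0108), and without FMT mouse 2 *Slc34a1* passed (1.63, edgeR adjusted p = 0.0314). Both depended on FMT mouse 1: without it *Slc34a1* was at 0.18 (edgeR adjusted p = 0.948), and *Lrp2* no longer passed the low count filter. With a gate minimum of 1 UMI they were at 0.45 and 0.44. With no filter on low counts both passed, at edgeR adjusted p-values of 0.00012 and 4.6e-05.

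In FMT mouse 1, which had the highest values, most of these distal UMIs lay in a few cells with other proximal tubule transcripts: 50 of the 62 *Lrp2* UMIs and 197 of the 236 *Slc34a1* UMIs of the distal gate were in the 32 of 210 cells that also held a UMI of a proximal gate gene. Without such cells the distal gate had 10.0 and 4.05 against 13.4, 8.44 and 1.65 CPM of *Lrp2*, and 37.5 and 45.1 against 43.4, 16.9 and 8.24 CPM of *Slc34a1*. *Lrp2* overlapped between the groups with and without these cells, and for *Slc34a1* FMT mice 2 and 3 were the lowest without them. *Cubn* followed the same pattern at 0 and 0.982 against 20.8, 1.47 and 7.59 CPM, from 0, 2, 24, 1 and 5 UMIs, and failed the low count filter of this gate. Without the cells with a proximal gate UMI it was at 0 in 4 mice and at 3.34 CPM in FMT mouse 1. In the fit of the difference between the proximal tubule and distal gates, which called 0.415% of 12062 genes, 0 of the members that passed the filter in both gates were called. *Cubn* entered that fit through its proximal counts alone, and its distal UMIs are too few to read a difference from. Thick limb markers in the distal gate summed to 4160 and 5546 CPM in the saline mice and 2108 to 2934 in the FMT mice, and their part in the distal values was not tested. The thick limb gate was not tested, since only 1 saline and 2 FMT mice had at least 20 cells.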

How the data were processed

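The deposited matrices of 5 samples hold UMI counts per gene and cell barcode; they name Cell Ranger 4.0.0 per the file headers, whereas the submitters' processing notes name version 2.1.1 and mm10. The labels' protocols describe kits for total RNA and for mRNA amplification as well, so how the libraries were prepared was not settled. Cells needed at least 200 genes and under 50% mitochondrial UMIs, and the highest Scrublet scores of each library (0.8% per 1000 cells; 883 cells) were removed as doublets with Scanpy 1.11.5. The proximal tubule gate required at least 2 UMIs of its 4 marker genes and none of *Ptprc*, *Slc12a1* or *Slc12a3*; S1 and S2 were split by which pair of markers had more UMIs. The distal and thick limb gates required at least 2 UMIs of their own marker, more than of the other's and no fewer than of the proximal markers, and no *Ptprc*, so they could hold proximal UMIs. The *Ptprc* gate required 1 UMI and more *Ptprc* than tubule marker UMIs. No filter was set on library depth. Counts were summed per mouse and gate and tested with edgeR 4.0.16 (TMM scaling, filterByExpr, quasi-likelihood F test, Benjamini-Hochberg over all genes tested). The SE of a log2 fold change is its absolute value divided by the square root of the F statistic. Gates needed 20 cells in a mouse. The test was checked on simulated data: it recovered 65.7% of 2-fold and 84.7% of 3-fold changes in the proximal tubule gate (11485 genes), 58.9% and 90.7% in S1 (9951), 42.3% and 89.2% in the distal gate (7961), and 6.25% and 47.4% in the *Ptprc* gate (10959). False calls among unchanged genes numbered 15, 10, 14 and 5 in these gates. In each simulation 93 to 99 genes changed by each fold were left after the low count filter, and changed genes that failed it do not enter the recovered shares. These shares also depend on the number of genes changed, so they need not hold for the real counts. Alternatives were DESeq2 1.42.0, RLE scaling, no low count filter, other gate, doublet and mitochondrial settings, leaving out each mouse, the replicate number as a block, and leaving out each member's top cell. Gene positions are from GENCODE M21 (GRCm38), which held 27645 of the 27998 identifiers. All members were to be named in every gate, together with the list genes of smallest p (up to 3 a list) and the 5 nearest neighbours of *Cyp24a1*; the text gives a part of the list genes, and *Pth1r* in the proximal tubule gate, outside this rule, was added after its values were seen. The members, gene lists, gates and this rule were chosen with earlier results of these data known.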

Additional observations from a re-analysis of the deposited data

Results flagged for a closer look

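The fitted effect of FMT on *Cubn* was lower in the proximal tubule than in the distal gate by a difference of -4.14 on the log2 scale (SE 0.842), past the threshold of the fit over both gates. *Cubn* entered that fit through the proximal tubule gate and failed the low count filter of the distal gate, so the value is given as a description and not as a test. Its distal side rests on 0 and 2 UMIs in the saline mice and 24, 1 and 5 in the FMT mice. Of these, 21 in FMT mouse 1, and all those of the other mice, lay in distal gate cells that also held a UMI of a proximal gate gene, and in 1 cell of FMT mouse 1 there were 9. Leaving out 1 mouse gave -3.57 (saline 1), -9.30 (saline 2) and -2.85 (FMT 1), each short of the threshold, as were -2.08 with a gate minimum of 1 UMI and -2.27 with doublets kept. The difference stayed past the threshold in 6 of 11 alternatives, among them those without FMT mouse 2 and without FMT mouse 3. *Lrp2* and *Slc34a1* had differences of -2.001 (SE 0.490; edgeR adjusted p = 0.0635) and -1.36 (SE 0.353; edgeR adjusted p = 0.0842) in the same fit, and -1.05 and -0.67 without FMT mouse 1.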

How the results depend on the processing

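For member levels by gate, 266 of 270 values under other settings moved by less than 1 SD between mice. The exceptions were a mean over mice of 7.03 CPM for *Cyp24a1* in the distal gate with a gate minimum of 1 UMI, of 82.2 for *Vdr* in the thick limb with a minimum of 3 UMIs and 30.1 without the top cell, and of 4.24 for *Vdr* in the *Ptprc* gate with no doublet removal. Mean shares of cells moved without thinning to 24.8% (*Cyp27b1*, S1), 37.4% (*Slc34a3*, S1), 0.498% (*Cyp27b1*, *Ptprc*) and 0.418% (*Slc34a3*, *Ptprc*), and at 1000 UMIs to 11.9% (*Slc34a3*, S1).

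The number of genes called, with edgeR unless named, depended on the settings. With DESeq2 it was 81 in the proximal tubule gate, 89 in S2, 16 in the distal and 13 in the *Ptprc* gate. With no low count filter it was 189 in the proximal tubule gate, 154 in S1, 247 in S2, 161 in the distal and 36 in the *Ptprc* gate, and 28 and 146 for the S1 to S2 and proximal to distal differences. With the replicate number as a block it was 74 in the proximal tubule gate, 62 in S2, 6 in the distal and 58 in the *Ptprc* gate; the labels do not pair the numbers, and deviations of same-numbered mice correlated at -0.232 and -0.0113 in the proximal tubule gate. The block called *Cyp27b1* in the proximal tubule gate (-1.70; edgeR adjusted p = 0.00978). A gate minimum of 3 UMIs gave 8 and 14 genes in the proximal tubule and S2 gates, and a minimum of 1 gave 0 in S2, 40 for S1 to S2 and 31 for proximal to distal, where no doublet removal gave 32. Leaving out each mouse gave 1 to 8 genes in the proximal tubule gate, 6 to 73 in S1, 3 to 13 in S2, 3 to 63 in the distal gate, 3 to 203 for S1 to S2 and 15 to 116 for proximal to distal. The thick limb alternatives were not run.

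Of 601 member fold changes under other settings, 545 counted as unchanged. For the tested members this means the same direction and the same side of the threshold. For *Cyp24a1* it means the same direction and a move of less than 1 SD between mice within groups. *Cyp24a1*, chosen for this contrast in the same mice, kept its direction in all 14 settings of each proximal gate, and nothing is read from that. Those that turned sign were near 0. *Slc34a3* in the proximal tubule gate was 0.0961 with the block, 0.0255 with a gate minimum of 1 and 0.011 under 20% mitochondrial UMIs (-0.32 to 0.12 leaving out mice), and in S1 -0.0177 to 0.23. *Lrp2* was -0.33 to 0.0464 leaving out mice in the proximal tubule gate and -0.21 to 0.15 in S1, where the block gave 0.0541 and a minimum of 1 gave 0.0173. *Vdr* was -0.0772 to 0.29 leaving out mice in the proximal tubule gate, -0.18 to 0.31 in S1, -0.088 to 0.25 in S2 and -0.22 to 0.17 in the distal gate, with 0.149 there with the block and 0.0023 at a minimum of 1. Its S1 to S2 difference was 0.0189 at a minimum of 1, 0.0368 under 20% mitochondrial UMIs and -0.12 to 0.086 leaving out mice, and its proximal to distal difference -0.22 to 0.44. Leaving out mice gave -0.0827 to 0.091 for *Cubn* in S1, -0.32 to 0.0056 for *Kl* in S1 and -0.14 to 0.34 in the distal gate, and -0.0597 to 0.17 for the S1 to S2 difference of *Slc20a2*. The cause of these shifts was not tested. The distal values of *Cyp24a1*, *Cyp27b1*, *Slc34a3* and *Cubn* are limited by depth.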

Other observations

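Cells that entered no gate also held *Cyp24a1*: they gave 29.0% and 26.8% of all its UMIs in the saline mice and 13.1%, 22.3% and 17.8% in the FMT mice. Cells with exactly 1 UMI of the proximal gate genes had 302 and 189 CPM in the saline mice and 72.4, 59.4 and 33.3 in the FMT mice. Cells with no gate gene at all had 84.2 and 39.9 CPM against 23.2, 19.8 and 17.5. *Cyp24a1* was chosen for this contrast in the same mice, so the order of the groups in these cells is a description. Their type was not assigned, and those with exactly 1 proximal gate UMI enter the proximal tubule gate at a minimum of 1 UMI.

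*Pdzk1*, a scaffold that binds *Slc34a1* at the brush border, had the highest log2 fold change of the list genes in the distal gate: 2.33 and 7.86 CPM in the saline mice and 37.3, 4.41 and 30.4 in the FMT mice (log2 fold change 2.098; edgeR adjusted p = 0.276), where FMT mouse 2 lay between the saline mice.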
